A study of Mus musculus with 6 samples.

Results

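Collagen chain genes were taken as every gene whose symbol consists of Col, a number, a lower-case a and a number, so that each encodes 1 chain of a collagen. The deposited tables held 44 such genes among 56884 gene IDs. Of these, 23 reached 0.5 TPM (a transcript level scaled for gene length and library size) in no fewer than 3 of the 6 libraries and were tested, among 15426 genes tested in all. The other 21 are described by their levels alone.

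RNA had been sequenced from an immortalized line of mouse stromal vascular fraction (SVF) cells, the non-adipocyte cells of subcutaneous white adipose tissue (scWAT), which hold the precursors of beige adipocytes. All cells carried a retroviral pMXs-Puro construct for PPARγ2, the adipocyte form of the master regulator of adipogenesis, and had been selected with puromycin. They differed at lysine 382. In PPARγ2 K382Q-overexpressing cells the lysine is replaced by glutamine, which resembles an acetylated lysine, and in PPARγ2 K382R-overexpressing cells by arginine, which cannot be acetylated. Both were sampled at day 2 of beige differentiation, with 3 libraries for each mutant labelled as biological replicates, after exposure to the same induction medium with isobutylmethylxanthine, indomethacin, dexamethasone, insulin, T3 and rosiglitazone. The mutants are called K382Q and K382R below. No cells without a mutant were analysed here, so a value in K382Q cells is low or high only relative to K382R cells. Each mutant was a population selected for stable expression, and whether the 3 replicates came from separate transductions was not given in the sources used here. The p-values therefore measure the spread between these libraries.

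The libraries held 5.95 to 7.50 gigabases of aligned sequence in K382Q cells and 6.53 to 8.15 in K382R cells. *Pparg* itself was at 1333, 1164 and 1104 TPM in the K382Q libraries and at 1590, 1632 and 1612 in the K382R libraries, a log2 fold change of -0.43 (SE 0.0638, limma adjusted p = 0.000977). These values do not separate the introduced from the endogenous transcript. Read coverage of *Pparg* ran from 66.4 to 122 reads per base, far below that of *Col4a1* (1694 to 2707), although *Pparg* was higher in TPM. The reason was not tested. The 2 mutants thus differed in *Pparg* RNA at the gene level as well as in the residue. The part of that RNA difference in the collagen values was not tested. By Western blot, the authors described overexpression of the 2 mutant proteins as largely similar. Tested genes as a whole lay slightly lower in K382Q cells on the TPM scale: the median log2 fold change of the 15426 genes was -0.14. Scaling the libraries to equal medians of gene ratios (median-ratio scaling) brought that median to 0.00. On that scale the log2 fold change of *Pparg* was -0.28 (limma adjusted p = 0.00815).

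Collagens are the main structural proteins of the extracellular matrix. Their chains repeat glycine followed by 2 other residues, often proline and hydroxyproline, and 3 chains wind into a rope-like helix that tolerates no residue larger than glycine at its core. Fibrillar collagens have a long unbroken helix and pack into banded fibrils, which give tissue its tensile strength. Basement membrane collagens (type IV) have an often interrupted helix and form sheets, and in adipose tissue they surround each adipocyte. FACITs (fibril-associated collagens with interrupted helices) lie on the surface of fibrils, beaded filament collagens (type VI) form a microfibril network that is abundant in adipose tissue, short-chain collagens form hexagonal networks, multiplexins bind to basement membranes and release fragments such as endostatin, and transmembrane collagens are cell surface proteins. Fibroblast-like preadipocytes make fibrillar collagen, and the matrix is remodelled towards basement membrane as they become adipocytes.

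The repeat can be read directly in the genes. In fibrillar collagen genes a large share of the exons that encode the helix are 54 bases long, which is 6 glycine triplets. One such exon is shown for 4 fibrillar genes whose values are compared below, read from GRCm39 on the coding strand, 5′ to 3′, with the first base of a codon first. Capitals mark the glycine codon that opens each triplet.

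Col1a1, coding exon 8, chr11:94830730-94830783, plus strand: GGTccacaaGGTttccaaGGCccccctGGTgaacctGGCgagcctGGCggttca

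Col1a2, coding exon 8, chr6:4515481-4515534, plus strand: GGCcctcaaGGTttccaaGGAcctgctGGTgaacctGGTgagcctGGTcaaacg

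Col3a1, coding exon 6, chr1:45364520-45364573, plus strand: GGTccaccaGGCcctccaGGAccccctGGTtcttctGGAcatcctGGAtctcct

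Col5a2, coding exon 6, chr1:45474052-45474105, minus strand: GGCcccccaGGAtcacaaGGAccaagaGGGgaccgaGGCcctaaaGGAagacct

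Each of the 4 exons holds 18 codons in 6 triplets, and a glycine codon opens every triplet. In the canonical GENCODE transcripts, the 9 tested fibrillar genes had 21 to 33 coding exons of exactly 54 bases, and their longest unbroken run of glycine triplets counted 217 to 344 triplets. Of the 9, 8 had a run of 337 or more (*Col5a3* had 337), and the exception was *Col27a1* with 217. The 3 tested basement membrane genes had longest runs of 40 to 66 triplets, broken into 22 to 24 runs of at least 5. FACIT genes reached 32 to 113 triplets and beaded filament genes 45 to 87. *Col8a1*, whose coding sequence lies in 2 exons, reached 61, and both multiplexin genes reached 30. By longest run, the 9 fibrillar genes thus stood apart from all other classes, while the ranges of FACIT, basement membrane and beaded filament genes overlapped.

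**Figure D1:**
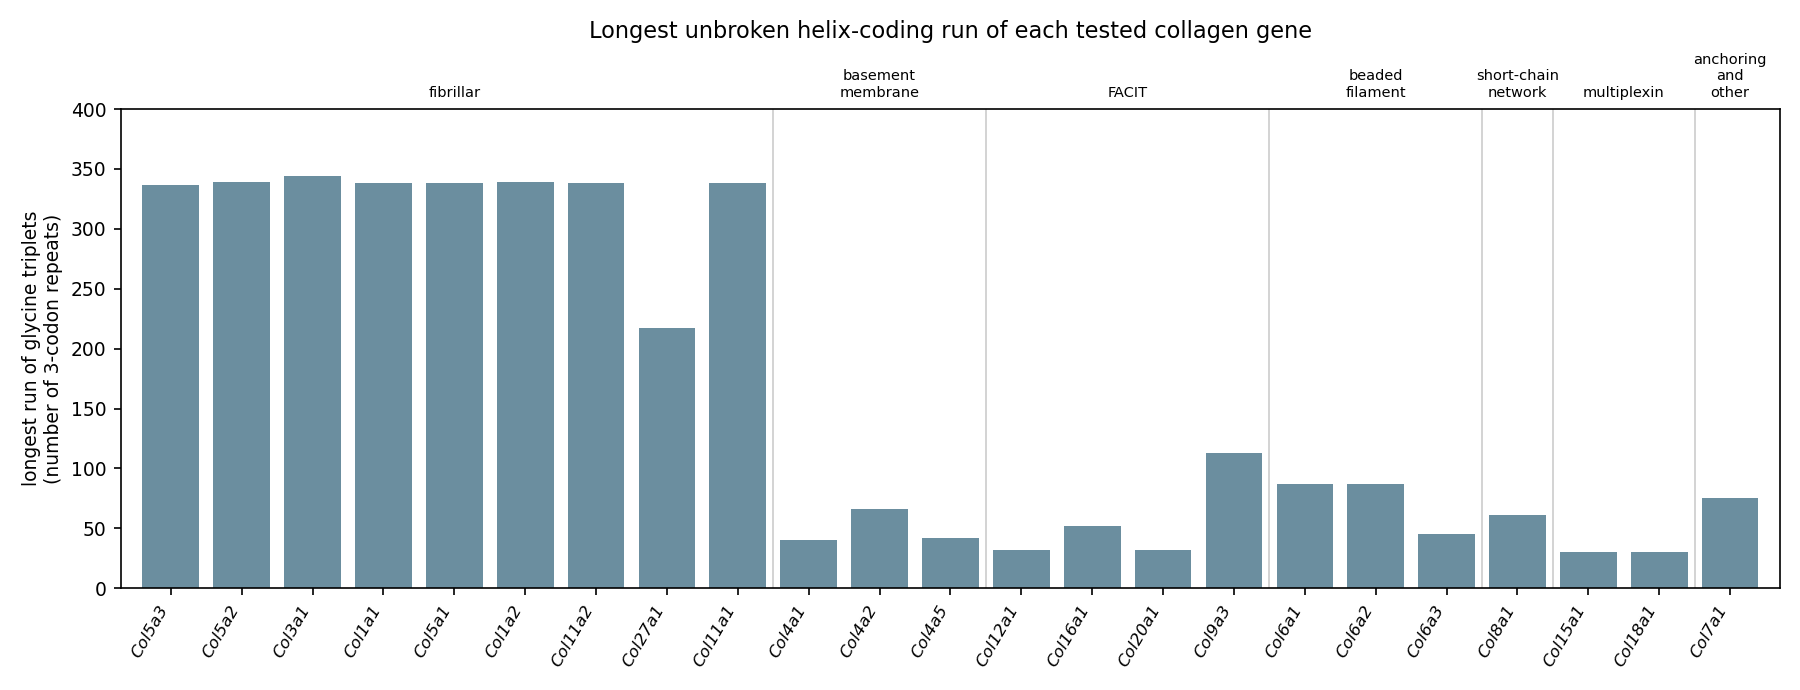
The bars give, for each of the 23 tested collagen genes, the largest number of successive 3-codon units that begin with a glycine codon in the canonical transcript, with genes grouped by class and ordered by level. The bars of 8 fibrillar genes reach 337 to 344 triplets and those of all other classes stay at or under 113.

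By level, the cells were rich in type VI and type IV collagen rather than in fibrillar collagen. TPM is divided by transcript length, and the order of genes given here is that by TPM, which differs from the order by read coverage for some of them. *Col6a1*, which encodes the α1(VI) chain, led in both mutants at 822 ± 19.9 (SD, n = 3) TPM in K382Q and 990 ± 12.2 TPM in K382R cells. *Col4a1*, for α1(IV), came next at 804 ± 28.4 and 946 ± 13.1 TPM. In K382Q cells the *Col6a1* libraries (800 to 838 TPM) overlapped those of *Col4a1* (778 to 835), so their order was not resolved there. In K382R cells the lowest *Col6a1* library (977 TPM) lay above the highest *Col4a1* library (959). *Col6a2*, *Col4a2* and *Col6a3* followed, at 607, 405 and 391 TPM in K382Q and 787, 506 and 514 TPM in K382R cells. *Col4a2* (389 to 422 TPM) and *Col6a3* (387 to 399 TPM) overlapped in K382Q cells as well. The highest fibrillar gene was *Col5a3*, a type V chain that regulates fibril assembly, at 118 ± 5.79 and 145 ± 5.08 TPM. It exceeded *Col1a1*, the major chain of type I collagen, in every library.

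Across all 44 genes, the summed level was 3594, 3774 and 3589 TPM in the K382Q libraries and 4607, 4635 and 4534 TPM in the K382R libraries. All 3 K382Q sums lay below all 3 K382R sums, and the mean was lower by 20.5%, a log2 ratio of -0.33 that was -0.18 under median-ratio scaling. Collagen mRNA thus made up 0.365% of the TPM in K382Q cells and 0.459% in K382R cells. In this bulk RNA, fewer cells that express collagen and less collagen RNA per cell cannot be told apart.

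**Figure D2:**
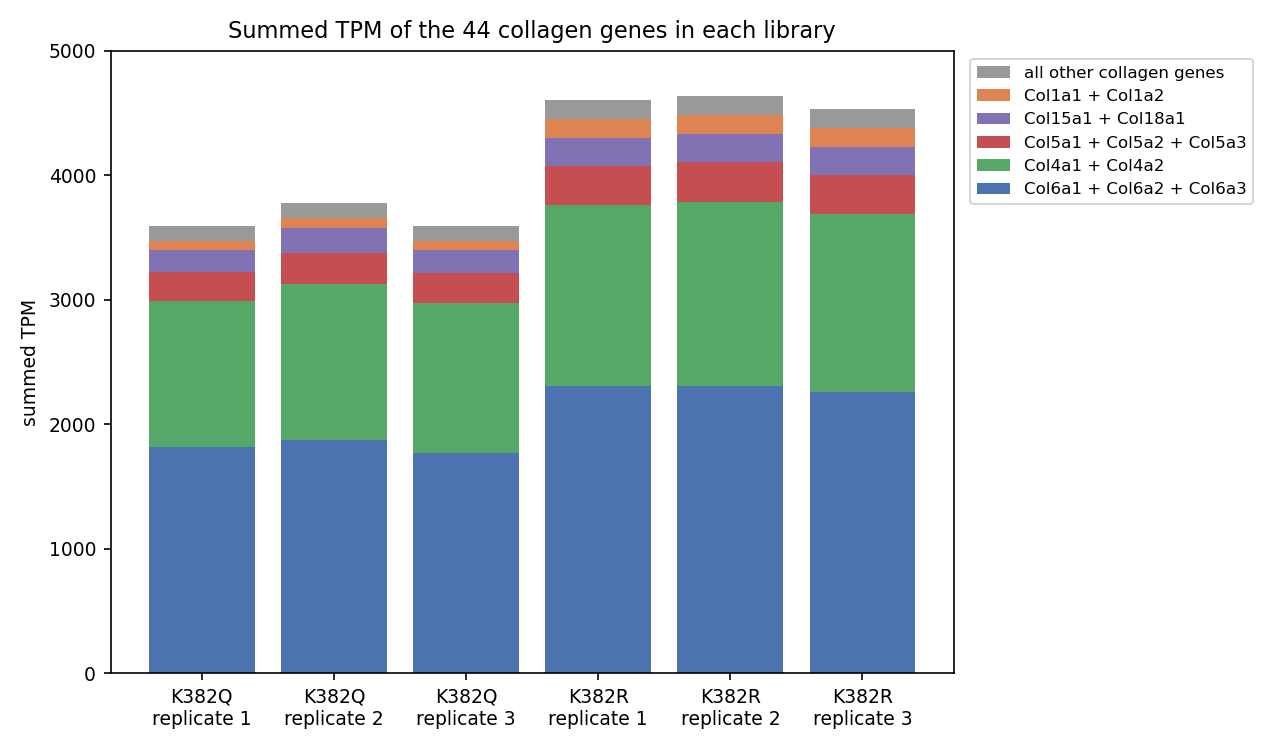
The stacked bars give the summed TPM of the 44 collagen genes in each of the 6 libraries, split into 5 groups of chains and the rest. The K382Q bars end between 3589 and 3774 TPM and the K382R bars between 4534 and 4635, and types VI and IV make up most of every bar.

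The 3 major type VI genes contributed 49.8% ± 0.697 (SD, n = 3) of the collagen sum in K382Q and 49.9% ± 0.131 in K382R cells. The share of *Col4a1* and *Col4a2* was 33.1% ± 0.542 and 31.6% ± 0.129, and that of the 3 type V genes was 6.58% ± 0.0971 and 6.93% ± 0.0600. The type VI share overlapped between the mutants, whereas the other shares did not. Among the types summed here, type I differed most in relative terms. *Col1a1* and *Col1a2* together made up 1.93%, 2.10% and 1.99% of the sum in K382Q and 3.30%, 3.20% and 3.36% in K382R libraries. The summed type I level was 151 ± 2.41 TPM in K382R and 73.5 ± 5.20 TPM in K382Q cells, a mean lower by 51.3%. The type VI sum was lower by 20.5% and the type IV sum by 16.7%. The far smaller sum of the short-chain class was lower by 83.2%, at 1.10 TPM in K382Q and 6.55 TPM in K382R cells. All these values are on the TPM scale. No test was run on these sums.

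**Figure D3:**
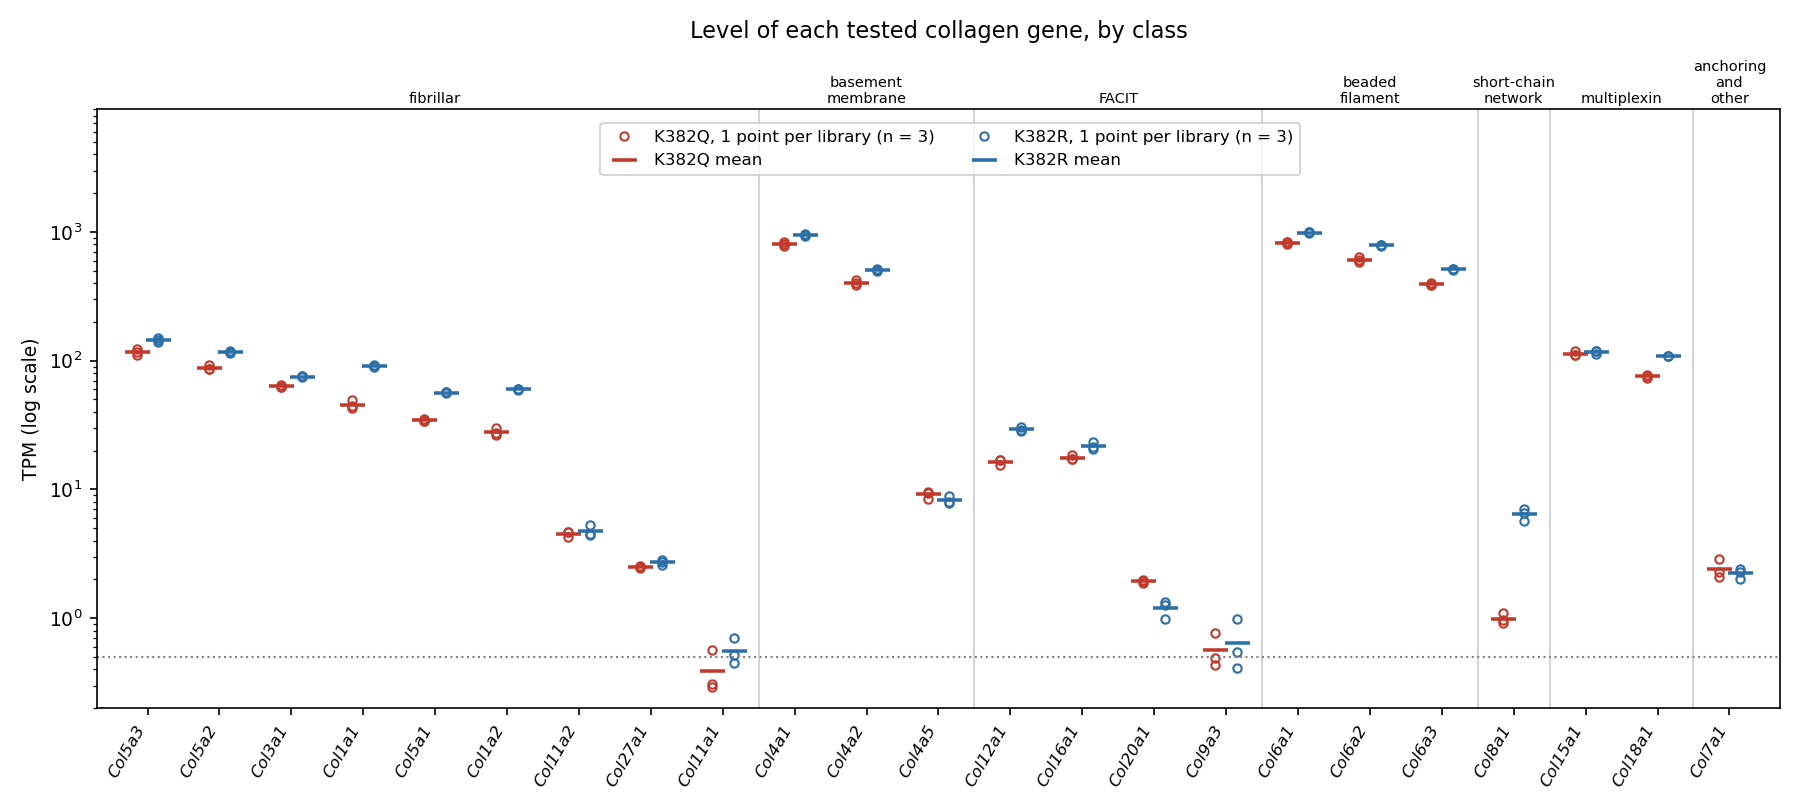
Each point is the TPM of 1 tested collagen gene in 1 library, on a log axis, with K382Q in red and K382R in blue and short lines for the means of 3 libraries. The dotted line marks the 0.5 TPM of the filter, and the points of *Col8a1*, *Col1a1* and *Col1a2* lie furthest apart between the mutants among genes lower in K382Q.

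Gene by gene, 15 of the 23 tested collagen genes were lower in K382Q than in K382R cells at an adjusted p-value under 0.05, 1 was higher and 7 were not called. The test was limma on log2(TPM + 0.5), with Benjamini-Hochberg adjustment over all 15426 genes. Over all genes tested, 48.1% were called, 36.9% lower and 11.1% higher, so calls in the lower direction were common in this comparison. At an unadjusted p-value under 0.05 the limma counts were the same, 15 lower and 1 higher, with no share of all genes given here. With a fold change over 2 also required, 2 collagen genes were lower (*Col1a2* and *Col8a1*) and 0 were higher, against 2.61% and 1.27% of all genes. Every K382Q library lay below every K382R library for 16 of the 23 genes, where 42.8% of all genes did so. For 1 gene every K382Q library lay above, against 14.1% of all genes.

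The median log2 fold change of the 23 genes was -0.30, and 16 of them lay below the all-gene median of -0.14. Under median-ratio scaling 13 were lower and 2 higher, where 20.4% and 19.9% of all genes were called. Read coverage behind these values ran from 0.420 reads per base, the lowest library of *Col11a1*, to 2984, the highest of *Col6a1*.

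**Figure D4:**
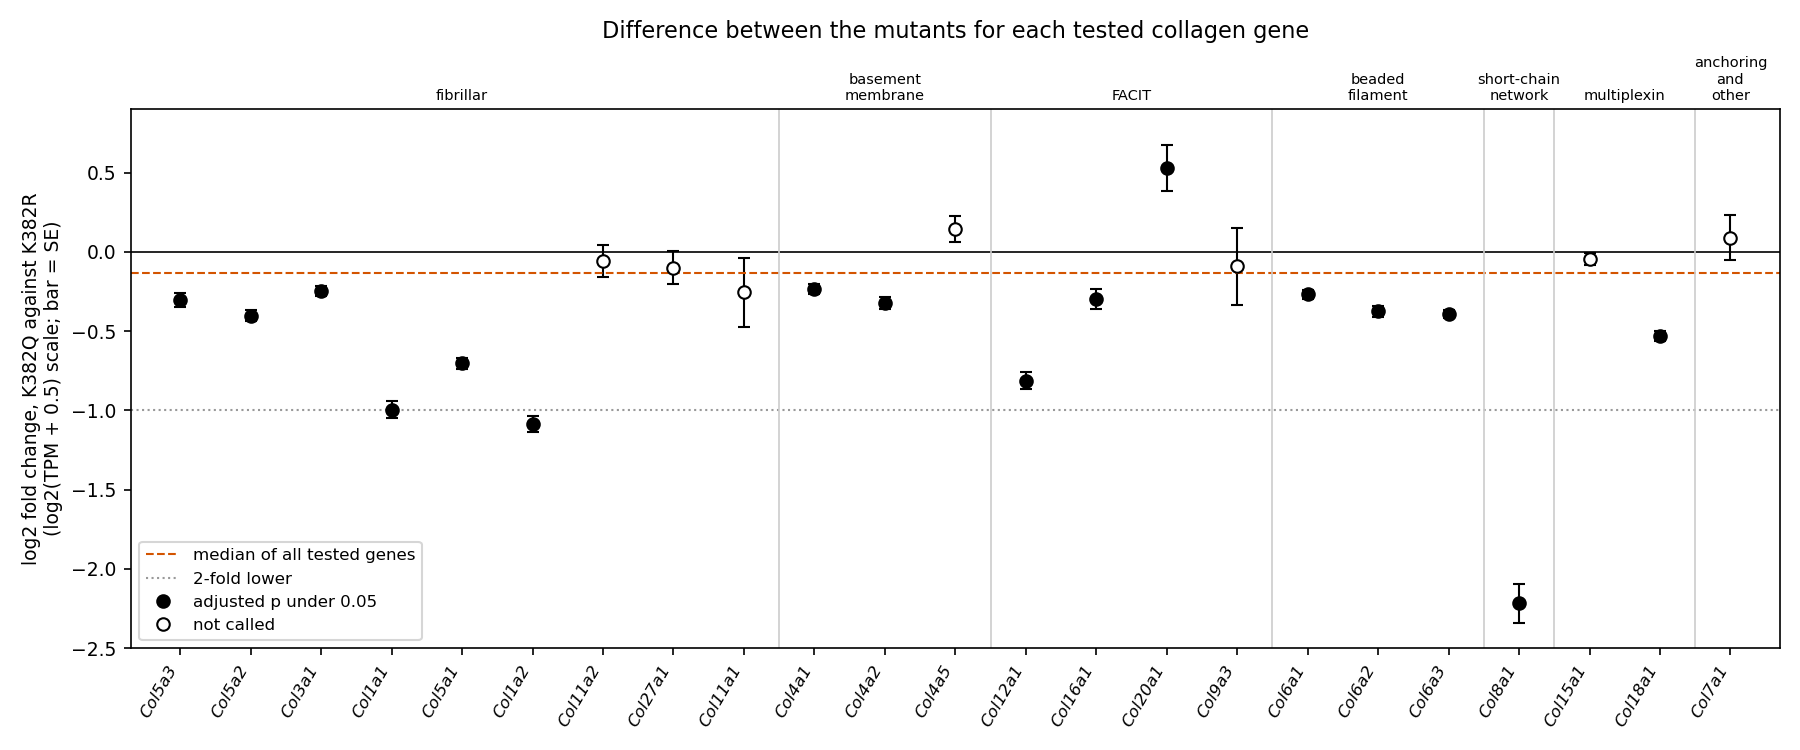
Points give the log2 fold change of K382Q against K382R cells on the log2(TPM + 0.5) scale for each tested collagen gene, with the standard error as bar. Filled points passed an adjusted p-value of 0.05. The orange line is the median of all tested genes, and *Col8a1*, *Col1a2*, *Col1a1*, *Col12a1* and *Col5a1* lie furthest below it.

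Among the fibrillar collagens, 6 of 9 tested genes were lower in K382Q cells and none was higher, and the 2 type I genes led. Over all tested genes 36.9% were called lower and 11.1% higher, or 20.4% and 19.9% under median-ratio scaling. The same shares apply to the classes that follow. *Col1a1* (chr11:94827050-94843868) was at 42.9, 49.4 and 44.1 TPM in the K382Q libraries and at 92.2, 89.4 and 91.8 TPM in the K382R libraries. The groups were far apart, with the highest K382Q library well under the lowest K382R library. Its log2 fold change was -0.996 (SE 0.0546, limma adjusted p = 6.72e-06), just short of a 2-fold change, and leaving out each library in turn moved it between -1.06 and -0.96. With a pseudocount of 0.1 it was -1.003 and just over 2-fold. *Col1a2* (chr6:4504814-4541544), for the α2 chain of the same molecule, was at 26.5, 29.9 and 27.5 TPM in K382Q and 60.1, 58.7 and 60.5 TPM in K382R cells. Its log2 fold change was -1.08 (SE 0.0505, limma adjusted p = 3.53e-06). Under median-ratio scaling it was -0.93 and no longer over 2-fold, though still called.

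*Col3a1* (chr1:45350698-45388866), the chain of type III collagen, which forms fine fibrils in compliant tissue, changed less. It was at 63.0, 64.4 and 62.3 TPM in K382Q and 74.4, 75.7 and 75.7 TPM in K382R cells. Its log2 fold change was -0.25 (SE 0.0316, limma adjusted p = 0.000433), which is 0.11 below the all-gene median, and it was no longer called after quantile normalization (-0.08, limma adjusted p = 0.0685). By TPM, the level of *Col3a1* was above that of *Col1a1* in every K382Q library and below it in every K382R library, whereas by read coverage it was below in all 6 libraries.

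The 3 type V genes encode minor fibril chains that set fibril diameter, and each was lower in K382Q cells. *Col5a1* was at 34.2, 35.2 and 34.2 TPM in K382Q and at 56.8, 56.8 and 55.9 TPM in K382R libraries, with a log2 fold change of -0.70 (SE 0.0348, limma adjusted p = 4.28e-06). *Col5a2* was at 88.5 ± 3.02 and 117 ± 1.48 TPM (SD, n = 3; log2 fold change -0.40, limma adjusted p = 6.27e-05). *Col5a3* had a log2 fold change of -0.30 (SE 0.0447, limma adjusted p = 0.000957). Under median-ratio scaling *Col5a1*, *Col5a2* and *Col5a3* were at -0.55, -0.25 and -0.15. All 3 were still called, *Col5a3* narrowly (limma adjusted p = 0.0441). By TPM the groups did not overlap for any of the 3 type V genes, as for 57% of all tested genes. The 3 chains of this type differed by unequal amounts.

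The remaining tested fibrillar genes are ones best known from cartilage. *Col11a2* was at 4.53 ± 0.246 and 4.75 ± 0.474 TPM and overlapped between the mutants (log2 fold change -0.06, 95% confidence interval -0.29 to 0.17). *Col27a1* was at 2.46 to 2.55 TPM in K382Q and 2.60 to 2.85 TPM in K382R cells, without overlap, but was not called (-0.10, interval -0.34 to 0.14). *Col11a1* lay at the edge of the filter, with 0.567, 0.307 and 0.293 TPM in K382Q and 0.521, 0.703 and 0.447 TPM in K382R libraries, and its interval was wide (-0.76 to 0.25). The sign changed under median-ratio scaling for *Col11a2* (0.0787) and *Col27a1* (0.0264), and without K382R replicate 1 for *Col11a2* (0.0142).

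Of the basement membrane genes, the abundant pair was lower in K382Q cells and a minor chain was not. *Col4a1* (chr8:11248423-11362826) was at 778, 835 and 799 TPM in K382Q and 945, 959 and 933 TPM in K382R libraries, a log2 fold change of -0.23 (SE 0.0329, limma adjusted p = 0.000721). *Col4a2* (chr8:11362805-11499287), whose product joins 2 α1 chains in the common type IV molecule, was at 389, 422 and 403 TPM against 507, 513 and 498 TPM, a log2 fold change of -0.32 (SE 0.0352, limma adjusted p = 0.000204). Neither pair of groups overlapped. Relative to the all-gene median, however, the *Col4a1* difference was only -0.10, and under median-ratio scaling it was -0.08 and not called (limma adjusted p = 0.125), while *Col4a2* was still called at -0.17. *Col4a5*, the X-linked chain mutated in Alport syndrome, was at 9.50, 8.49 and 9.45 TPM in K382Q and 8.88, 7.98 and 7.78 TPM in K382R libraries. The groups overlapped and the gene was not called (0.15, 95% interval -0.04 to 0.34), but under median-ratio scaling it was higher in K382Q cells at 0.29 (limma adjusted p = 0.0227).

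All 3 tested beaded filament genes were lower in K382Q cells, *Col6a1* by the least, where 36.9% of all tested genes were called lower. *Col6a1* was at 829, 838 and 800 TPM in K382Q and 993, 1001 and 977 TPM in K382R libraries (log2 fold change -0.27, limma adjusted p = 0.000190). *Col6a2* was at 604, 634 and 583 TPM against 796, 791 and 774 TPM (-0.38, limma adjusted p = 0.000105). *Col6a3*, the long α3 chain whose released C-terminal fragment is endotrophin, was at 387, 399 and 388 TPM against 517, 517 and 507 TPM (-0.39, limma adjusted p = 1.91e-05). All 3 lay below the K382R libraries without overlap, as did 42.8% of all tested genes. All 3 were also called lower under median-ratio scaling, at -0.12, -0.22 and -0.24, where 20.4% of all genes were.

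The 4 tested FACIT genes did not move together. *Col12a1*, whose product lies on type I fibrils, was lower in K382Q cells, with 16.9, 15.6 and 16.9 TPM against 28.2, 29.1 and 30.4 TPM (log2 fold change -0.81, SE 0.0548, limma adjusted p = 1.86e-05). *Col16a1* was at 17.7 ± 0.834 and 21.9 ± 1.41 TPM (SD, n = 3; log2 fold change -0.30, limma adjusted p = 0.00593), and was not called under median-ratio scaling (-0.15, limma adjusted p = 0.101). *Col20a1* was the single collagen gene called higher in K382Q cells, with 1.88, 1.96 and 1.95 TPM against 1.26, 0.983 and 1.34 TPM (0.53, SE 0.143, limma adjusted p = 0.0171). It is a low gene, and its call was lost when 1 of 3 libraries (K382Q replicate 2, K382Q replicate 3 or K382R replicate 2) was left out, with log2 fold changes of 0.52, 0.52 and 0.44. *Col9a3*, a cartilage chain at the edge of the filter with 0.436 to 0.768 and 0.413 to 0.978 TPM, overlapped between the mutants (interval -0.66 to 0.48).

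The largest difference of any tested collagen gene was that of *Col8a1* (chr16:57444621-57575100), a short-chain collagen of vessel walls and of the membrane behind the cornea. It was at 0.912, 1.10 and 0.971 TPM in K382Q and at 7.07, 5.73 and 6.54 TPM in K382R libraries. The lowest K382R library was several times the highest K382Q library, and the ratio of the means was 6.49. Its log2 fold change was -2.22 (SE 0.122, limma adjusted p = 6.90e-06). It ranged from -2.58 with a pseudocount of 0.1 to -1.47 with coverage in place of TPM, and was called under every setting tried. Its coverage ran from 1.46 to 13.9 reads per base, so the value rests on far fewer reads than those of types I, IV and VI. *Col8a2*, the other chain of type VIII collagen, stayed at or under 0.0643 TPM in every library.

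The 2 multiplexin genes differed from each other. *Col18a1*, the source of endostatin, was at 72.9, 77.5 and 76.1 TPM in K382Q and 109, 110 and 109 TPM in K382R libraries (log2 fold change -0.53, SE 0.0335, limma adjusted p = 1.37e-05). *Col15a1*, its basement membrane relative, was at 110, 118 and 110 TPM against 118, 118 and 112 TPM. These groups overlapped, and the difference of -0.05 (95% interval -0.14 to 0.05) was not called and became 0.11 under median-ratio scaling. *Col7a1*, the anchoring fibril chain of skin, was at 2.43 ± 0.408 and 2.24 ± 0.197 TPM, with overlap, and was not called (0.09, interval -0.24 to 0.42; -0.0213 without K382Q replicate 1).

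The replicates were close. Over the 16 collagen genes with a mean of at least 5 TPM, the coefficient of variation ranged from 1.60% to 7.62% in K382Q cells (median 4.12%) and from 0.384% to 7.13% in K382R cells (median 1.45%). The widest gene was *Col1a1* in K382Q cells, where replicate 2 was above the other two, and *Col4a5* in K382R cells.

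Because collagen molecules are assembled from several chains, ratios between chains were also computed within each library, which removes the scaling of the library. The ratio of *Col1a1* to *Col1a2* was 1.62, 1.65 and 1.61 in K382Q and 1.53, 1.52 and 1.52 in K382R libraries. The ratio of *Col3a1* to *Col1a1* was 1.47, 1.30 and 1.41 in K382Q and 0.807, 0.847 and 0.825 in K382R libraries. The balance of type III over type I thus differed far more than the balance within type I. For the basement membrane pair, *Col4a1* to *Col4a2* was 1.99 ± 0.0127 (SD, n = 3) in K382Q and 1.87 ± 0.00516 in K382R cells. Within type V, *Col5a1* to *Col5a2* was 0.390 ± 0.00699 and 0.483 ± 0.00850. Within type VI, *Col6a1* to *Col6a2* was 1.36 ± 0.0301 and 1.26 ± 0.00958, and *Col6a3* to *Col6a1* was 0.476 ± 0.00905 and 0.519 ± 0.00195. None of the 6 ratios overlapped between the mutants. The 57% of all tested genes without overlap in TPM is a share of single genes, and no share over gene pairs was computed. Some of the 6 ratios share a chain, so they are not independent of each other. No test was run on the ratios.

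The size of such a ratio depended on the unit, and its difference between the mutants much less. By read coverage in place of TPM, *Col1a1* to *Col1a2* was 3.40 ± 0.0970 and 3.18 ± 0.0313, and *Col3a1* to *Col1a1* was 0.888 ± 0.0537 and 0.525 ± 0.0135. The difference of the logarithms was 0.09 by TPM and 0.10 by coverage for the first, and 0.75 and 0.76 for the second. In these tables the coverage of a gene divided by its FPKM was 0.426 of the commonest ratio among all genes for *Col1a2*, 0.428 for *Col6a2* and 0.260 for *Col15a1*, but 0.890 for *Col1a1* and 0.936 for *Col6a1*. Why it differed between genes was not tested, and an order between chains by TPM may not hold by coverage.

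**Figure D5:**
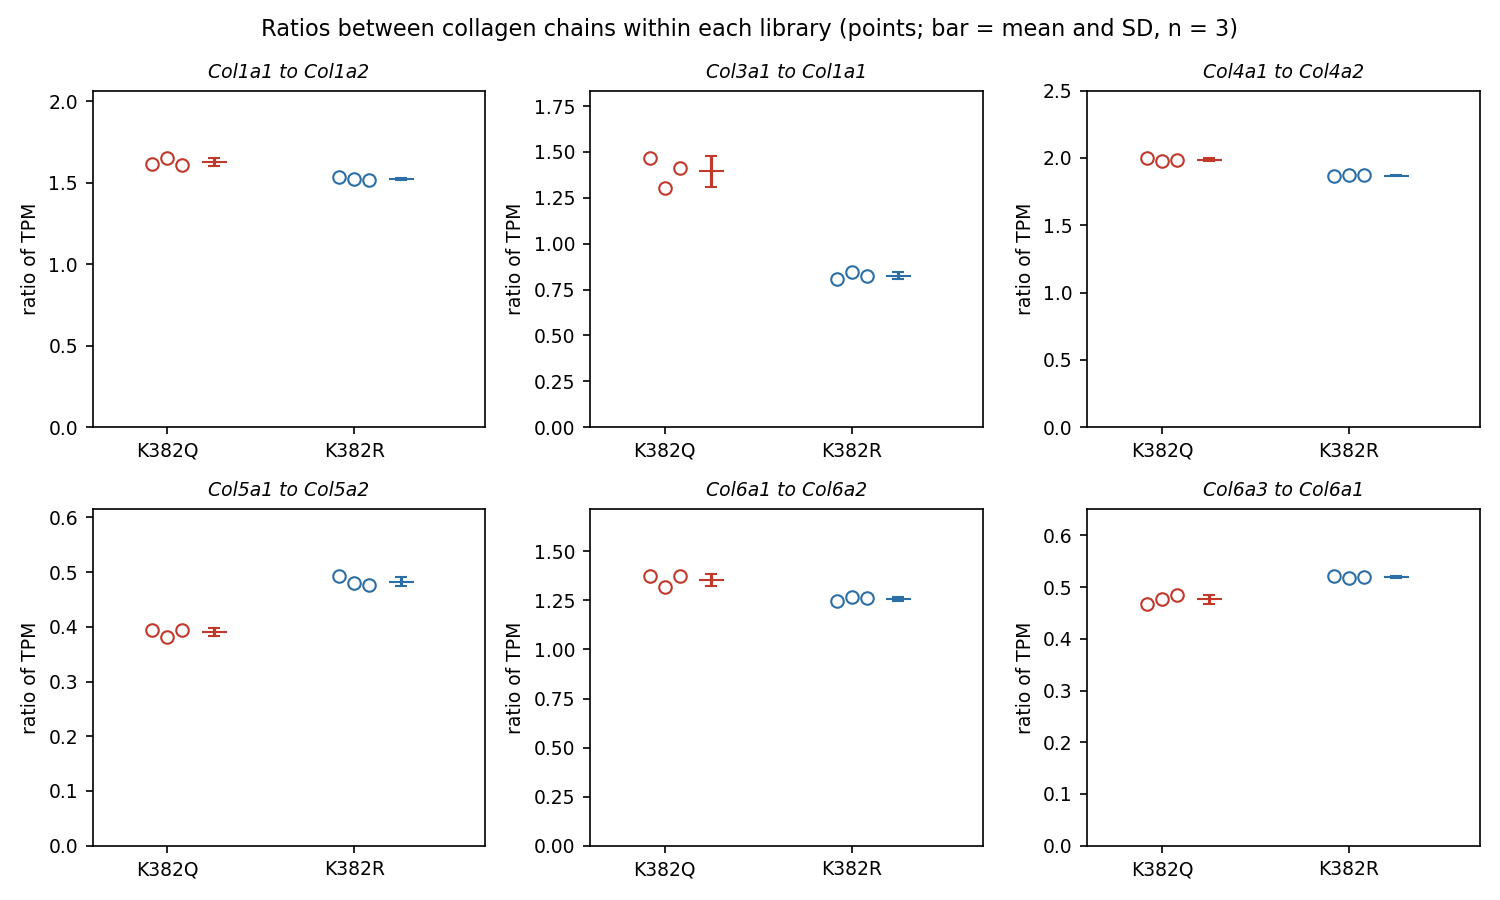
Each panel gives the TPM of 1 collagen chain gene divided by that of another, with 1 point per library and the mean and SD of 3 libraries beside them; axes start at 0. The ratio of *Col3a1* to *Col1a1* is 1.30 or more in all K382Q libraries and at most 0.847 in all K382R libraries, and the other 5 ratios differ by less.

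The 21 genes that missed the filter were near or at 0. Their highest value was 0.477 TPM, in 1 library for *Col26a1*, and 4 genes (*Col9a1*, *Col9a2*, *Col19a1* and *Col13a1*) were listed at 0 in all 6 libraries. All 4 transmembrane genes, 5 of 9 FACIT genes and 3 of 6 basement membrane genes were among them. *Col2a1*, the collagen of cartilage, did not exceed 0.128 TPM, and *Col10a1*, a marker of hypertrophic chondrocytes, did not exceed 0.151. Nearest the filter on its outer side lay *Col14a1* (0.0855 to 0.368 TPM), *Col26a1* and *Col28a1*. *Col28a1* was at 0.0239, 0.0207 and 0.0773 TPM in K382Q and 0.364, 0.245 and 0.196 TPM in K382R libraries, without overlap, and was not tested. *Col17a1*, also untested, lay the other way without overlap, at 0.0265 to 0.0933 TPM in K382Q and 0 to 0.0240 TPM in K382R libraries.

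Neighbouring genes bear on how these values can be read. *Col4a1* and *Col4a2* lie head to head on opposite strands of chromosome 8, and in the deposited tables their starts are 21 bases apart and overlap. The library kit does not mark the strand. In GENCODE, 14 of the 23 tested genes overlap an exon on the opposite strand, of 18 genes that are not collagens, 8 of which are listed in the tables. The most abundant of these 8, *Gm13372* beside *Col5a1*, had a mean of 1.30 TPM, against 34.5 and 56.5 TPM for *Col5a1*. The strand of reads in such overlaps cannot be told.

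The promoters of 2 of the genes with the largest differences are shown as the 150 bases before the canonical GENCODE start, read from GRCm39 5′ to 3′ on the strand of the gene. In *Col1a1* capitals mark ATTGG, which is CCAAT on the other strand and is the core of the site bound by NF-Y. In *Col8a1* capitals mark CCGCCC, which is GGGCGG (a GC box, bound by Sp1) on the other strand.

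Col1a1, chr11:94826900-94827049, plus strand: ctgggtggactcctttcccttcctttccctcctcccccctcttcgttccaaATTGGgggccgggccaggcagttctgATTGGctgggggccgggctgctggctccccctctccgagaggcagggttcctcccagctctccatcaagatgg

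Col8a1, chr16:57575101-57575250, minus strand: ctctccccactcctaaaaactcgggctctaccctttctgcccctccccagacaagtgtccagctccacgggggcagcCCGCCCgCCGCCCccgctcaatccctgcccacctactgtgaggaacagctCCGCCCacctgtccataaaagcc

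The marked letters begin 99 and 73 bases before the start of *Col1a1*, and 73, 66 and 23 bases before that of *Col8a1*. Over windows of 250 bases before to 50 after the start, searched on both strands, CCAAT was found in 10 of the 23 tested collagen genes and in 39.2% of 15372 tested genes. GGGCGG was found in 14 of the 23 and in 52.2%, and TATAAA in 3 of the 23 and in 9.75%. A direct repeat of AGGTCA with 1 base of any kind between the copies, the textbook form of the element bound by PPARγ with its partner RXR, was found in 4 of the 15372 windows and in none of the collagen genes. A match of letters is a description of the window only.

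Genes that act on collagen chains were counted by their roles, and their counts are to be read against the 36.9% of all tested genes called lower and 11.1% called higher (20.4% and 19.9% under median-ratio scaling). With a fold change over 2 also required, the shares of all tested genes were 2.61% lower and 1.27% higher. In the list of 24 folding and modification genes, 23 were tested, of which 17 were lower in K382Q cells, 2 higher and 4 not called, with a median log2 fold change of -0.28. *Serpinh1*, the collagen-specific chaperone HSP47, was at 217, 227 and 220 TPM in K382Q and at 402, 400 and 397 TPM in K382R libraries (-0.85, SE 0.0282, limma adjusted p = 8.28e-07). *Creb3l1*, a transcription factor that drives collagen genes in bone, was at 3.69 ± 0.408 and 11.0 ± 0.741 TPM (SD, n = 3; -1.46, limma adjusted p = 1.87e-05). *P4ha3*, a catalytic subunit of prolyl 4-hydroxylase, which makes hydroxyproline, was at 0.413 ± 0.165 and 2.99 ± 0.281 TPM (-1.95, limma adjusted p = 7.81e-05). The 2 higher genes encode subunits of the same enzyme. *P4hb*, for its abundant β subunit, was at 1240 ± 24.6 and 1175 ± 11.1 TPM (0.08, limma adjusted p = 0.0486). *P4ha2*, named after its value was seen, was at 131 ± 6.39 and 117 ± 0.142 TPM (0.15, limma adjusted p = 0.0141). *P4ha1*, for another catalytic subunit and named in the same way, was at 157 ± 7.50 and 152 ± 2.74 TPM. It was not called (0.04, limma adjusted p = 0.406). The call of *P4hb* was lost without a filter, without an intensity trend, with the replicate block (limma adjusted p = 0.0820) and when any library except K382Q replicate 1 was left out (0.06 to 0.08), and its sign changed with quantile normalization (-0.0498, limma adjusted p = 0.164). Under median-ratio scaling 11 genes of this list were lower and 3 higher, with *P4ha1* added to the higher ones (0.20, limma adjusted p = 0.00762).

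In the list of 22 genes of propeptide cleavage, crosslinking and fibril assembly, 17 were tested, of which 14 were lower in K382Q cells, 7 of them over 2-fold, and none was higher. The median of the list was -0.81. *Sparc*, a collagen-binding protein and the most abundant gene of the list, was at 965, 976 and 971 TPM in K382Q and 1184, 1185 and 1188 TPM in K382R libraries (-0.29, limma adjusted p = 5.41e-05). Under median-ratio scaling *Sparc* was at -0.14 (limma adjusted p = 0.00544). *Postn*, for periostin, which promotes crosslinking, was at 143, 140 and 142 TPM against 541, 522 and 567 TPM (-1.93, limma adjusted p = 1.99e-07). *Thbs2*, for a matricellular protein that affects fibril assembly, was at 69.7, 69.3 and 69.4 TPM against 248, 241 and 254 TPM (-1.83, limma adjusted p = 1.99e-07). *Bgn*, for the small proteoglycan biglycan, was at 197 ± 4.39 and 560 ± 19.5 TPM (-1.51, limma adjusted p = 2.51e-07). These groups lay apart without overlap, and the differences of *Postn*, *Thbs2* and *Bgn* were larger than that of any tested collagen gene except *Col8a1*. The 3 genes not called, named after their values were seen, were *Lox*, for lysyl oxidase, at 80.9 ± 1.96 and 85.3 ± 2.36 TPM, *Loxl2* at 109 ± 3.07 and 108 ± 0.772 TPM and *Tnxb* at 0.971 ± 0.112 and 1.36 ± 0.0931 TPM. At an unadjusted limma p-value under 0.05, 15 genes of this list were lower and 0 higher, with no share of all genes given here. Under median-ratio scaling 13 were called lower and 1 higher.

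Of 10 collagen receptors 6 were tested, and 4 were lower and none higher, also under median-ratio scaling. The counts were the same at an unadjusted limma p-value, for which no share of all genes is given here. They were the integrin subunit *Itgb1* at 226 ± 9.85 and 282 ± 6.61 TPM (-0.32, limma adjusted p = 0.000324), the discoidin domain receptors *Ddr2* (-0.36) and *Ddr1* (-0.46), and the collagen uptake receptor *Mrc2* (-0.43). Under median-ratio scaling *Itgb1*, *Ddr2*, *Ddr1* and *Mrc2* were at -0.17, -0.21, -0.31 and -0.28. Of 13 genes of collagen degradation 8 were tested, and all 8 were lower in K382Q cells by TPM, 2 of them over 2-fold. *Mmp13*, for an interstitial collagenase, passed the filter only through its 3 K382R libraries, the group where it was high, and its call and its place in the count rest on that. It was at 0.225 ± 0.0314 and 1.80 ± 0.183 TPM (-1.67). The inhibitors of such proteases were lower as well, with *Timp1* at 13.7 ± 1.53 and 48.4 ± 3.46 TPM (-1.79, limma adjusted p = 4.28e-06) and *Timp2* at 60.1 ± 3.18 and 121 ± 4.87 TPM (-0.999, limma adjusted p = 4.14e-06). *Ctsl*, the most abundant gene of the list and the gene of a lysosomal protease, differed least (-0.11, limma adjusted p = 0.00822). Under median-ratio scaling 6 of the 8 were lower: *Ctsl* changed sign and was not called (0.0394, limma adjusted p = 0.307), and *Ctsk*, for the protease cathepsin K, was not called (-0.27, limma adjusted p = 0.0759).

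Markers of the cell types that such a culture could hold were measured in the same libraries, and their counts are to be read against the same shares of all tested genes (36.9% lower and 11.1% higher, or 20.4% and 19.9% under median-ratio scaling). The 11 tested adipocyte markers of a list of 12 included 4 higher (*Fabp4*, *Cd36*, *Cidec* and *Retn*, at 0.27 to 0.43 on the log2 scale), 2 lower (*Adipoq* and *Lpl*) and 5 not called. Under median-ratio scaling 8 were higher, with *Plin1*, *Plin4*, *Pnpla2* and *Dgat2* added at 0.11 to 0.23, and only *Adipoq* was lower, since *Lpl* was at -0.0329 (limma adjusted p = 0.403). Their summed level was 54725 to 58528 TPM in K382Q and 45176 to 46486 TPM in K382R libraries, most of it from *Fabp4*, a fatty acid binding protein, at 47893 ± 2099 and 37837 ± 617 TPM. *Adipoq*, for adiponectin, went the other way, with 148 ± 1.20 and 360 ± 20.2 TPM (-1.28, limma adjusted p = 7.63e-07), and *Lep* was listed at 0 in all libraries. Of 10 adipose progenitor markers 5 were tested and all 5 were lower in K382Q cells, with a summed level of 474 to 520 against 790 to 828 TPM, led by *Ly6a* at 467 ± 26.9 and 767 ± 17.6 TPM (-0.72, limma adjusted p = 1.14e-05). *Pdgfra*, the defining progenitor receptor, was at 4.93 ± 0.203 and 9.53 ± 0.809 TPM (-0.88, limma adjusted p = 0.000122). *Thy1*, a surface marker of fibroblasts, was at 1.61 ± 0.112 and 4.50 ± 0.0460 TPM (-1.25, limma adjusted p = 5.36e-05) and *Zfp423*, a preadipocyte transcription factor, at 11.2 ± 0.191 and 16.1 ± 0.510 TPM (-0.50, limma adjusted p = 0.000207). *Dpp4* was listed at 0.

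Of 8 myofibroblast and smooth muscle markers 5 were tested, with 4 lower (among them *Myl9*, a myosin light chain, which passed the filter only through its 3 K382R libraries) and 1 higher (*Des*, for desmin, at 0.57, named after its value was seen), and a summed level of 127 to 138 against 161 to 164 TPM. *Acta2*, for smooth muscle actin, was at 0.675, 0.838 and 0.778 TPM in K382Q and 12.8, 12.6 and 14.4 TPM in K382R libraries (-3.44, limma adjusted p = 6.51e-07), while *Tpm2* made up most of the sum in both and was not called under median-ratio scaling (-0.0172, limma adjusted p = 0.764). The part of progenitor-like, myofibroblast-like and adipocyte-like cells in the collagen differences was not tested. Few markers of other sources passed the filter. Of 8 endothelial markers only *Pecam1* was tested (1.75 ± 0.294 and 1.53 ± 0.0378 TPM, not called) and *Emcn* was listed at 0. Of 8 leukocyte markers only *Cd68* was tested (4.08 ± 0.614 and 4.14 ± 0.967 TPM, not called) and *Adgre1* and *Cd3e* were among those listed at 0. Of 6 epithelial markers only *Krt8* was tested, at 0.0578 ± 0.0579 and 0.663 ± 0.0775 TPM, and it passed the filter only through its 3 K382R libraries. *Krt14*, untested, lay the other way without overlap, with 0.280, 0.170 and 0.165 TPM in K382Q and 0.0299, 0.0534 and 0 TPM in K382R libraries. Of 8 chondrocyte and bone markers 3 were tested: *Sox9* was higher at 7.05 ± 0.556 and 4.48 ± 0.151 TPM (0.60, limma adjusted p = 0.000944), *Runx2* lower at 6.01 ± 0.352 and 8.02 ± 0.219 TPM (-0.39, limma adjusted p = 0.00407), and *Bglap* not called (-0.60, limma adjusted p = 0.139). The summed level of the list overlapped between the mutants (13.2 to 14.8 against 13.0 to 14.8 TPM), and *Acan* was listed at 0.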

How the data were processed

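Per the labels and the study's methods, RNA of the 6 libraries was prepared with a NEBNext Ultra kit, which does not mark the strand, and sequenced as read pairs. The authors trimmed reads with TrimGalore 0.6.7, mapped them with HISAT2 2.2.1 on GRCm39, sorted with SAMtools 1.14 and ran StringTie 2.2.1 for gene abundance; the annotation release is not given in the sources used here. The deposited table of each library gives coverage (mean reads per base, not normalized), FPKM (coverage scaled to all aligned bases) and TPM (scaled to an equal total per library, so a share and not an amount). The authors' test on counts was not repeated, since counts were not analysed here.

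TPM of the 3 to 5 repeated gene IDs per library were summed. Genes that reached 0.5 TPM in 3 or more libraries were fitted on the log2(TPM + 0.5) scale by limma 3.58.1 in R 4.3.3, with a variance trend on intensity and no covariate, all 6 libraries in 1 fit, and p-values were adjusted by Benjamini-Hochberg over all of them. A fold change on this scale understates the change of low genes. The script was tested on simulated data. Depth was read as the commonest ratio of coverage to FPKM. Intervals are 95% from the fit; the number of libraries limits the precision, and no counting interval was computed.

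The collagen classes and gene lists were written from general knowledge, and the members and lists were chosen with earlier results of these data known. Besides all tested collagen genes, the genes named were, for each list, the 2 most abundant and the 2 with the largest change among those called. A few others are marked as named after their values were seen (*Retn*, *Lpl*, *Ctsk*, *Plin1*, *Plin4*, *Pnpla2*, *Dgat2*, *Bglap* and *Krt14* among them), and *Col1a2*, *Col5a2* and *Col8a1* were added to the sequences in the same way. Exons, promoters and gene overlaps came from GENCODE M39 and GRCm39. Coordinates of genes are those of the tables, which equalled GENCODE for 10 of the 44. Tables and figures used Python 3.11.15, pandas 2.3.3, numpy 2.4.6 and matplotlib 3.10.9. Results for some single genes of the lists are not reported here. The alternatives were other pseudocounts (1 and 0.1), filters, units and scalings, no trend, array weights, a replicate block, a fold change over 1.5 and leaving out each library.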

Additional observations from a re-analysis of the deposited data

How the results depend on the processing

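Of the 16 collagen genes called, 12 kept their direction and their call under all 17 alternative settings, and over all genes and settings 355 values did so, 8 lost and 3 gained a call and 11 changed sign. The count of 15 lower genes was 15 whichever library was left out. The 1 higher gene, *Col20a1*, became 0 without a filter on low values and 0 to 1 when each library was left out, and with median-ratio scaling, quantile normalization or coverage in place of TPM (an alternative chosen after seeing the data) there were 2, since *Col4a5* was called as well. The 2 genes lower by more than 2-fold became 1 with FPKM, median-ratio scaling, quantile normalization or coverage. There were 3 with a pseudocount of 0.1, where *Col1a1* was added. The count was 5 at a fold change over 1.5, and 2 to 3 when each library was left out. Calls were lost by *Col3a1* with quantile normalization, *Col4a1* with median-ratio scaling and *Col16a1* with both.

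Among the collagen genes, signs changed only in those that were not called. *Col11a2*, at -0.0588, became 0.0148 with FPKM, 0.0787 with median-ratio scaling, 0.0660 with quantile normalization and 0.0631 with coverage, and ranged from -0.102 to 0.0142 when each library was left out (0.0142 without K382R replicate 1). *Col15a1*, at -0.0451, became 0.0385 with FPKM, 0.11 with median-ratio scaling, 0.0792 with quantile normalization and 0.0367 with coverage. *Col27a1* became 0.0264 with median-ratio scaling, and *Col7a1* ranged from -0.0213 (without K382Q replicate 1) to 0.169 when each library was left out. The log2 ratio of summed collagen TPM, -0.33, was -0.25 with FPKM, -0.18 with median-ratio scaling and -0.24 with coverage, and -0.35 to -0.32 when each library was left out. In the folding list the 17 lower genes became 11 with median-ratio scaling, and the 2 higher genes became 1 (*P4ha2*, with *P4hb* lost) without a filter or without an intensity trend and 1 to 2 when each library was left out. In the list of fibril assembly the count of 0 higher genes became 1 with median-ratio scaling or quantile normalization. The cause of these shifts was not tested. Counts were not analysed here, so the reads behind genes near 0.5 TPM were not known.

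No pairing by replicate number was visible: deviations of same-numbered libraries from their group means correlated at -0.02, 0.05 and 0.02. Those of differently numbered libraries ran from -0.06 to 0.04. Such correlations cannot tell whether same-numbered libraries were prepared together. With the replicate number as a block, 15 collagen genes were lower and 1 higher, and the folding list had 1 higher gene.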
